A study of Drosophila melanogaster with 18 samples.

Results

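Transcripts of 10 potassium channel genes were followed in Drosophila photoreceptor nuclei under 6 conditions. The genes were Sh, Shab, Shal, Shaw, eag, sei, Elk, slo, SK and KCNQ, taken by symbol from the 17811 features of the count table whatever their values were. All 10 passed the filter of more than 10 counts in every sample, which 9427 features passed.

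RNA was isolated from nuclei of the outer photoreceptors R1-R6 and sequenced after removal of ribosomal RNA, so the values describe nuclear RNA rather than the whole cell. Every sample was a pool of white-eyed w1118 males that carried cn and bw, which deplete eye pigment, and 1 insertion (3-1) of Rh1-GFP-Msp300KASH, a nuclear membrane tag driven by the regulatory elements of ninaE, the gene of Rhodopsin 1. The insertion lies in the untranslated region of Catalase, an antioxidant enzyme gene, and since all groups share it, nothing here separates its effect from that of age or light. The groups were untreated flies at day 5 (D5), day 15 (D15) and day 30 (D30), and day 5 flies frozen directly after blue light that lasted 3 h, 5 h or 8 h, with 3 samples in each group and 18 in all.

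Potassium channels open a path for potassium out of the cell and so bring a depolarized membrane back towards rest. The Shaker family (Sh, Shab, Shal and Shaw), the EAG family (eag, sei and Elk) and KCNQ open when the membrane depolarizes, slo needs depolarization together with calcium, and SK opens on calcium alone through bound calmodulin. In fly photoreceptors, where light opens calcium-permeable channels, the voltage-gated currents carried mainly by the Sh and Shab channels shape the response to light.

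In the Ensembl annotation of BDGP6.54, Sh spans X:17924307-18063247 on the minus strand, with 17 transcripts and 22801 bases of merged exons. The other X-linked members, eag at X:14955477-15009989 and SK at X:5340236-5405138, lie on the plus strand. Shab lies at 3L:2895017-2959579 (plus), Shal at 3L:19566851-19584568 (minus), Shaw at 2L:3718185-3729145 (plus) and slo, with 23 transcripts, at 3R:24662491-24711595 (plus). The genes sei, Elk and KCNQ lie on arm 2R. Exons of 8 members touched no exon of another gene. KCNQ shared 798 exon bases with asRNA:CR45133 and 265 with CG18011, and sei shared 359 with gammaSnap1 and 119 with ppk29, all on the other strand. The strand setting of the counting is not given in the sources used here, so reads of these pairs cannot be told apart in the shared bases. The overlapping genes held 35 to 568 counts per sample, against at least 10479 for KCNQ and at least 500 for sei.

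Between 11.4 and 20.5 M read pairs per sample were counted on genes, of 32.1 to 57.2 M in the table. D5 and D15 were sequenced on 1 lane and the 3 blue light groups on another lane of the same flow cell, whereas D30 came from another flow cell. Lane and condition therefore cannot be told apart except at D15 against D5 and among the blue light groups. Read pairs with several alignments made up 25.2 to 26.6% at D30 and 6.33 to 10.5% elsewhere. The 5 h samples did not resemble each other more than other samples, with mean correlations of 0.909, 0.955 and 0.920 within the group and 0.909, 0.956 and 0.949 with other groups. Each was nearest to a sample of another group, the first to one of 3 h, the second to one of D15 and the third to one of 8 h. The first had the lowest correlation with its own group of all 18. The 14 markers of R1-R6 cells, such as ninaE and trp, summed to 48607 to 91810 cpm, counts scaled for library size, in a sample. The 15 markers of other neurons summed to 713 to 1541 cpm, the 6 of R7 and R8 to 491 to 1137, the 10 of glia to 361 to 2215, the 7 of hemocytes and basement membrane to 277 to 650, and the 7 of muscle to 496 to 2233. No marker was at 0 in any sample, and the lowest was sens, a gene of R8 cells, with 2 counts. In such bulk samples, fewer nuclei of a type and less RNA per nucleus cannot be told apart.

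Levels of different genes were compared as RPKM, the counts scaled for the length of the merged exons and for library size after TMM normalization. Over the 18 samples, 6 members formed a high group, and each of the 6 stood at or above the 97.0th percentile of all tested genes. KCNQ had the highest mean, 432 RPKM, followed by Sh with 349, slo with 341, SK with 217, eag with 199 and Shab with 129. This order depends on the scaling for length, since the merged exons hold 3875 bases for KCNQ and 22801 for Sh. Without that scaling, mean cpm at D5 was 6581 for Sh, 3151 for slo, 2063 for SK, 1633 for eag, 1321 for KCNQ and 1191 for Shab. These 6 genes made up 94.2 to 97.1% of the summed RPKM of the 10 in every sample. The other 4 were much lower, with means of 29.4 RPKM for Shal, 19.8 for sei, 8.23 for Shaw and 6.74 for Elk. In the ranking of all tested genes the members ran from the 45.8th percentile (Elk) to the 99.4th (KCNQ).

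The order within the high group depended on the condition. At D5 it was KCNQ (341 ± 28.6 RPKM, SD, n = 3), slo (310.3 ± 65.9) and Sh (289 ± 77.0), whose samples overlapped, then SK (189 ± 28.9) and eag (154 ± 27.3), which also overlapped each other, and then Shab (105 ± 5.76), which stood below all of them. Below these came Shal (28.3 ± 1.70), sei (20.3 ± 3.00), Shaw (10.6 ± 0.572) and Elk (7.96 ± 0.981), and no 2 of these 4 overlapped with their neighbours in the order. By RPKM, KCNQ was first at D5 and in the 3 blue light groups, and at 3 h its samples stood clear of those of slo, the next gene. At D15 and D30, slo came first, Sh next and KCNQ the third. The samples of slo (418 ± 14.8) and Sh (309.8 ± 48.5) did not overlap at D15, whereas at D30 each of the 6 high genes overlapped with its neighbour in the order except for Shab and the lower Shal.

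**Figure D1:**
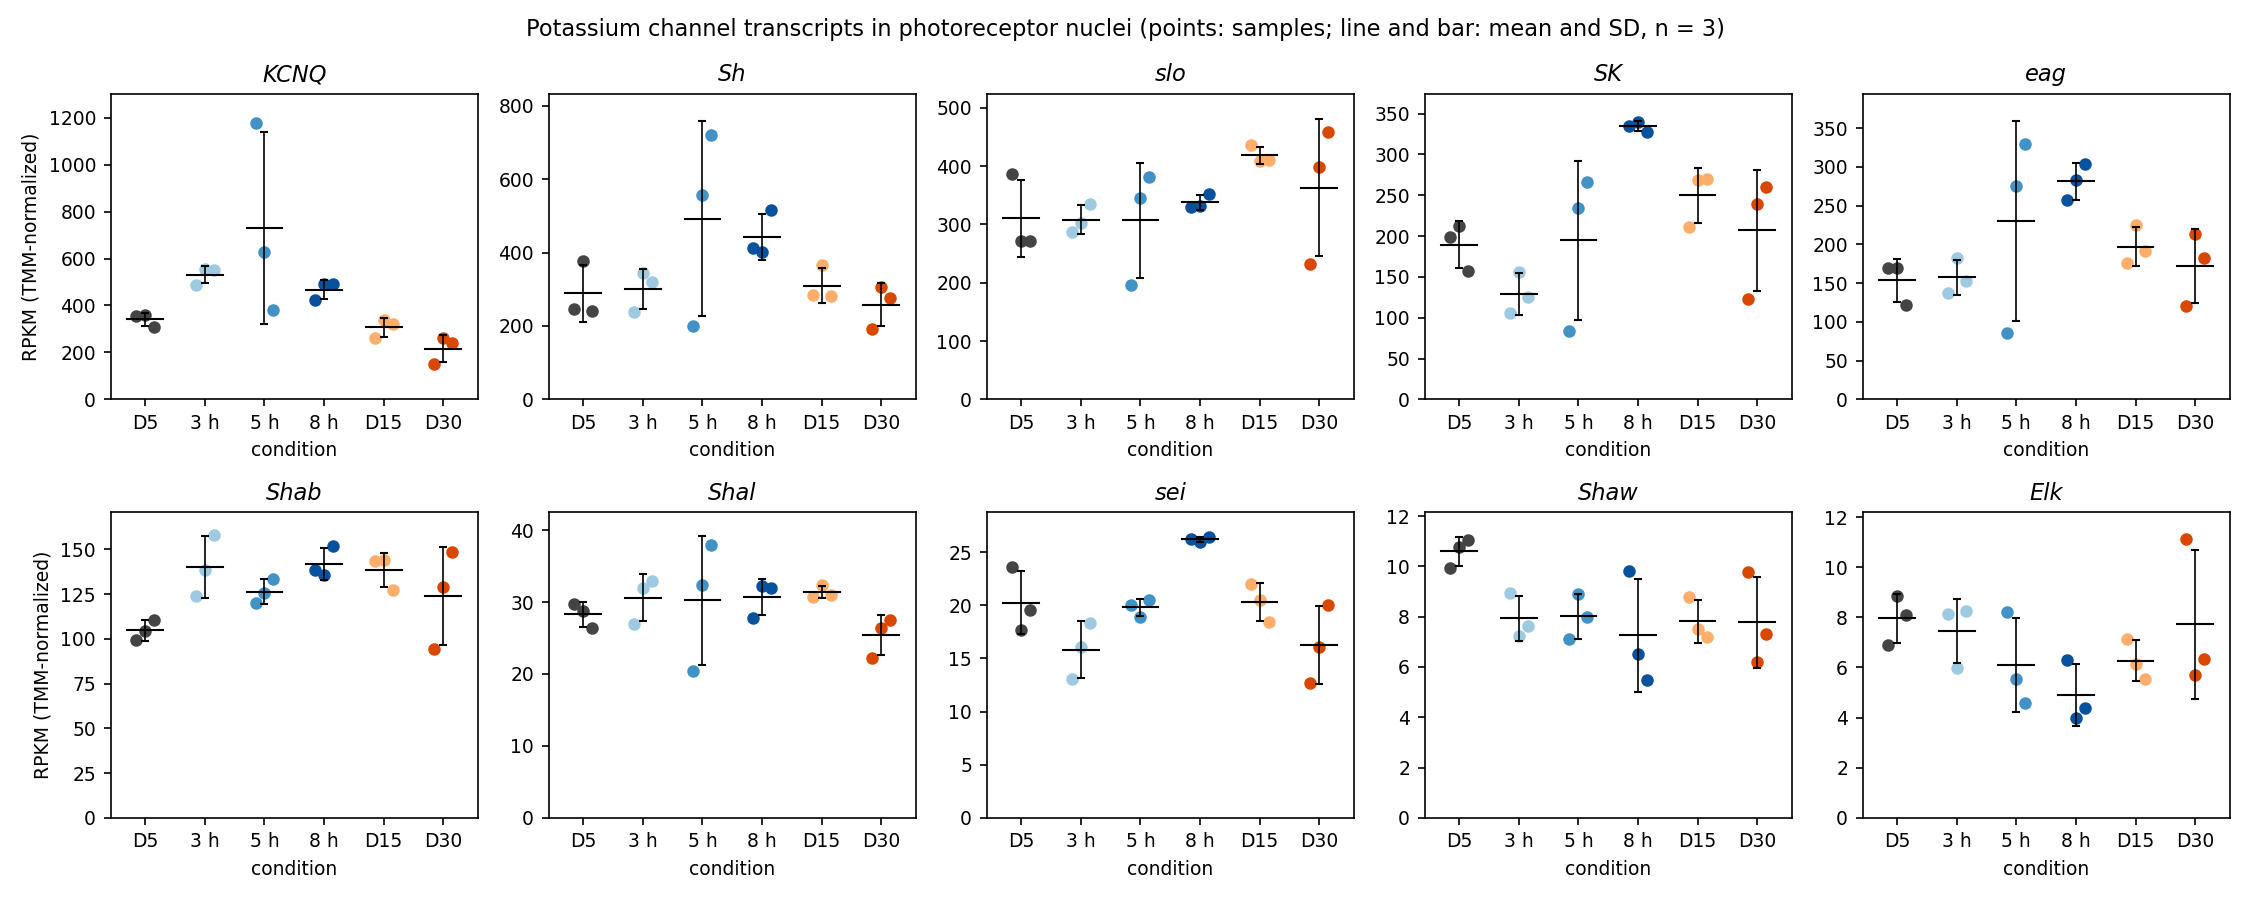
TMM-normalized RPKM (vertical axes, each from 0) of each channel gene in the 6 conditions (horizontal axes), where points are samples and the line and bar are the mean and SD of 3 samples. SK and sei have narrow, high values at 8 h, KCNQ is lowest at D30, and the first 5 h sample lies far from the other 2 in KCNQ, Sh, slo, SK and eag.

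In all, 2 fits were read for each comparison, both edgeR quasi-likelihood tests over all 9427 genes, with Benjamini-Hochberg adjustment and a call at an adjusted p under 0.05. The first takes from the methods of the study 2 RUVs factors of unwanted variation, estimated from the differences between replicates. It departs from them in the filter, stated there as cpm over 10 in all samples, which left 4211 genes here. The second has no factors. In the first fit, 1 factor or both had all samples of one group on one side of the other for each blue light group against D5, for 8 h against 3 h and for D30 against 8 h, but not for D15 or D30 against D5. Values of the fit with factors come first below. The p-values rest on the spread between samples of pooled flies within groups, estimated over all 18 samples in 1 fit. With factors, it is the spread left after the factors, which were themselves estimated from the differences between replicates.

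After 3 h of blue light 1 of 10 members was called, Shal, which rose, where 7.88% of all tested genes were called, 4.64% as higher. The median log2 fold change of the members was 0.21, against 0.01 for all tested genes. With the stated filter 4 members were called, Sh, Shal and eag as higher and sei as lower, beside 19.0% of all genes. Without factors no member was called, 2 passed an unadjusted p of 0.05, and 19.2% of all genes were called. After 5 h the fit with factors called 0 of 10, beside 9.60% of all genes, with 3 at an unadjusted p under 0.05, while DESeq2 and the edgeR fit without factors each called 1, KCNQ, which rose, beside 13.5 and 12.2% of all genes. After 8 h no member was called in either edgeR fit or by DESeq2, with 0 at an unadjusted p under 0.05 with factors and 6 without, where edgeR called 9.08% of all genes with factors and 19.1% without.

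The samples themselves gave a different picture at 8 h. For 6 members all 3 samples at 8 h lay above all 3 at D5, and for 2 they lay below. That is 8 of 10 against 50.3% of all tested genes, 25.1% above and 25.2% below. The same count was 4 of 10 at 3 h, where 45.2% of genes did not overlap, and 3 of 10 at 5 h, where 26.8% did not. The median log2 fold change of the members at 8 h was 0.10 with factors and 0.40 without, against -0.03 and 0.02 for all tested genes. The 6 members above D5 at 8 h were Sh, Shab, eag, sei, SK and KCNQ, and the 2 below were Shaw and Elk. Fitted with the 6 samples of these groups alone, 8 h differed from D5 for 7 members, of which 6 rose and Elk fell, beside 34.0% of all genes. Like every fit of 6 samples alone in this report, it held 2 factors estimated from those samples. That leaves little from which to estimate the spread.

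With age, D15 against D5, which share a lane, gave 0 calls among the 10 members, where 3.81% of all genes were called. The fit without factors called 0.159% of all genes and again no member. The genes Shab and KCNQ had an unadjusted p under 0.05, and DESeq2 called 1, KCNQ, which fell, beside 7.20% of all genes. At D30 the fit with factors called 2 of 10, Shaw and KCNQ, and both fell, where 17.5% of all genes were called, 8.72% as lower. Without factors neither was called, beside 4.40% of all genes, and both kept their direction. The samples did not overlap with D5 for 5 of 10 members at D15, beside 34.0% of all genes, and for 2 of 10 at D30, beside 26.5%. All of these comparisons use the same D5 samples, so their calls are not independent of each other.

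**Figure D2:**
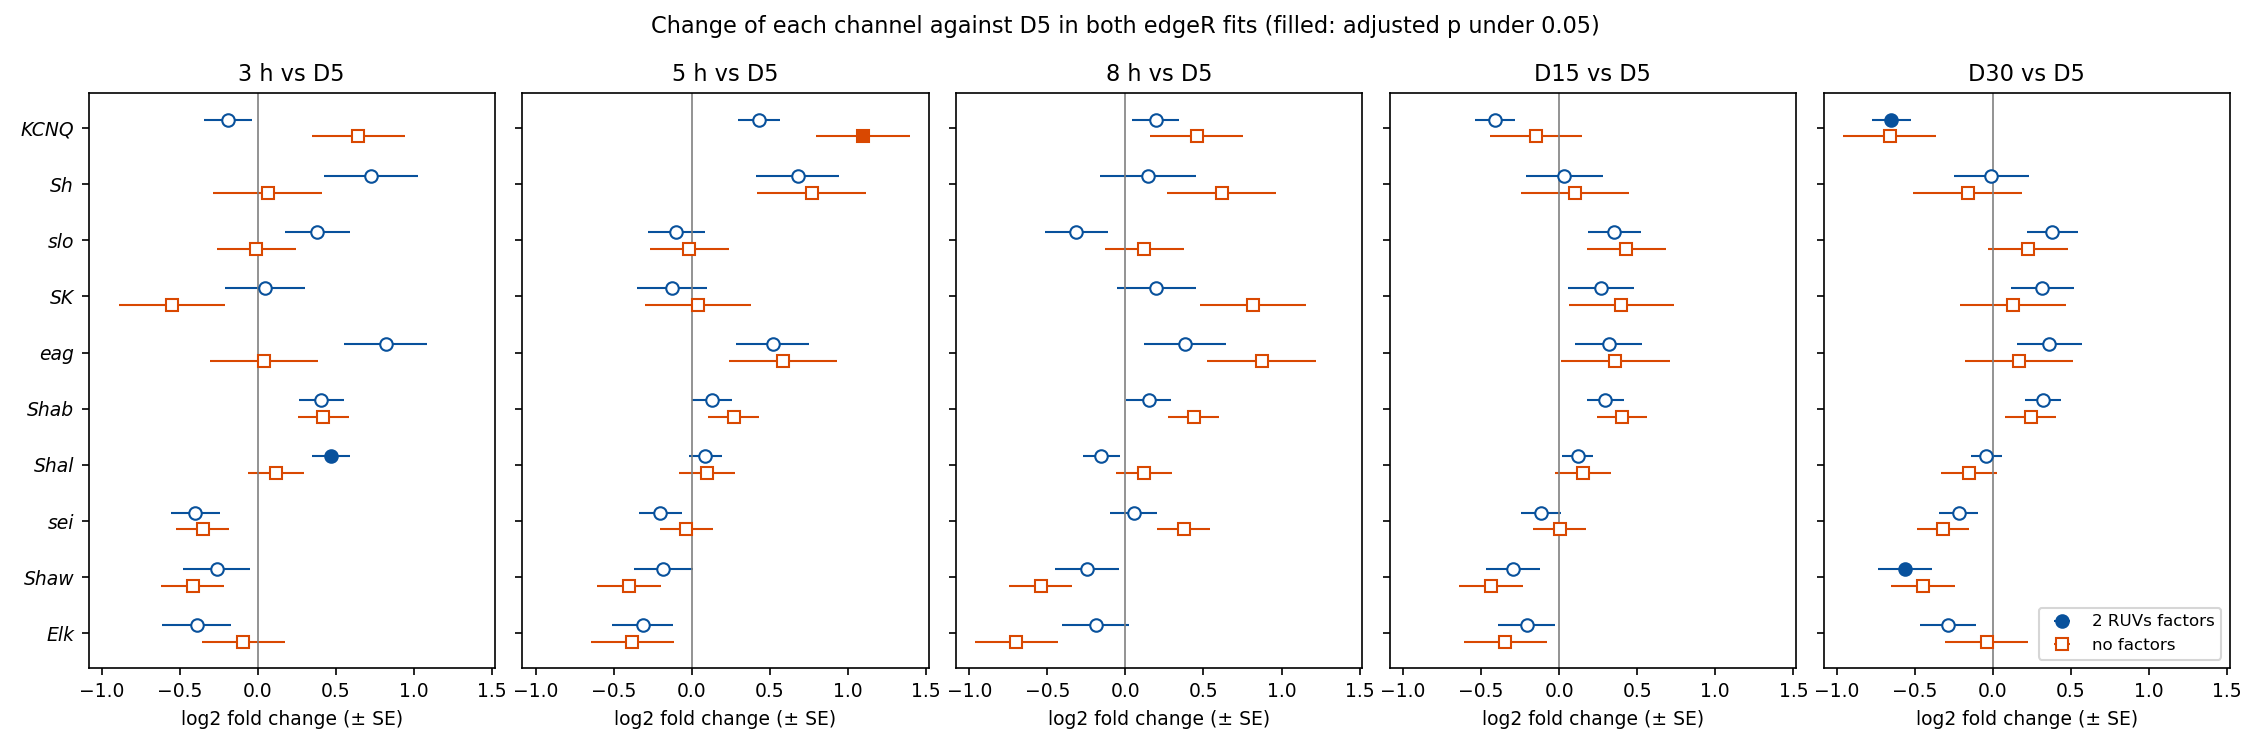
Log2 fold change with its standard error (horizontal axes) of each channel gene against D5, in the edgeR fit with 2 RUVs factors (circles) and in the fit without factors (squares), with filled symbols for an adjusted p under 0.05. KCNQ lies at -0.65 and -0.66 at D30 in the 2 fits, while at 3 h it lies at -0.19 with factors and 0.64 without.

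KCNQ, the channel of the slow M-type current that stays open near rest, held the widest range of the 10, from 149 to 1178 RPKM. At D5 its samples had 354, 361 and 308 RPKM, and at D30 they had 149, 259.8 and 238. All D30 samples lay below all D5 samples. In the fit with factors KCNQ fell by 0.65 on the log2 scale (SE 0.12, adjusted p = 0.00312), and its mean RPKM at D30 was 0.633 of that at D5. The fit without factors gave nearly the same size with a larger error, -0.66 (SE 0.30, adjusted p = 0.209). The call held in every fit that left out 1 of the D5 or D30 samples, with log2 fold changes from -0.83 to -0.56. At D15 the samples had 261, 339 and 322 RPKM and overlapped with D5, and the value was -0.41 (SE 0.13, adjusted p = 0.0836) with factors and -0.15 (SE 0.30, adjusted p = 0.829) without.

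In blue light KCNQ stood above D5 in all 9 samples. They had 489, 555 and 551 RPKM at 3 h, 1178, 629 and 382 at 5 h, and 421, 492 and 491 at 8 h. The first 5 h sample held the highest value of the 18, and the third lay close to D5. Without factors the log2 fold change was 0.64 (SE 0.30, adjusted p = 0.140) at 3 h, 1.10 (SE 0.30, adjusted p = 0.0293) at 5 h and 0.46 (SE 0.30, adjusted p = 0.275) at 8 h. With factors it was -0.19 (SE 0.15, adjusted p = 0.486), 0.43 (SE 0.13, adjusted p = 0.0546) and 0.20 (SE 0.15, adjusted p = 0.430), so at 3 h the sign of the fitted value went against that of the samples. Without the first 5 h sample, the value at 5 h was 0.29 (adjusted p = 0.208) with factors and 0.57 (adjusted p = 0.129) without, and the call of the latter fit was lost. At 8 h KCNQ was called as higher with cpm over 1 in 3 samples and with no filter, beside 14.2 and 13.2% of all genes. It was also called with 1 factor and in the 6 samples of D5 and 8 h alone, beside 34.9 and 34.0%.

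D30 and 8 h differed for KCNQ in both fits, by -0.84 (SE 0.18, adjusted p = 0.0109) with factors and -1.12 (SE 0.30, adjusted p = 0.0140) without. KCNQ was the only member called in the fit with factors, where 7.50% of all genes were called (2.90% as lower), and its mean at D30 was 0.461 of that at 8 h. The call held without each of the 8 h and D30 samples in turn, with values from -1.20 to -0.79. It was lost in the fit without factors that also left out the first D30 sample (-0.91, adjusted p = 0.0755). The samples of 6 members lay below those of 8 h at D30, and none lay above, where 46.0% of all genes did not overlap, 21.8% below. Without factors sei fell too, by 0.69 (SE 0.17, adjusted p = 0.00845), where 25.8% of all genes were called.

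**Figure D3:**
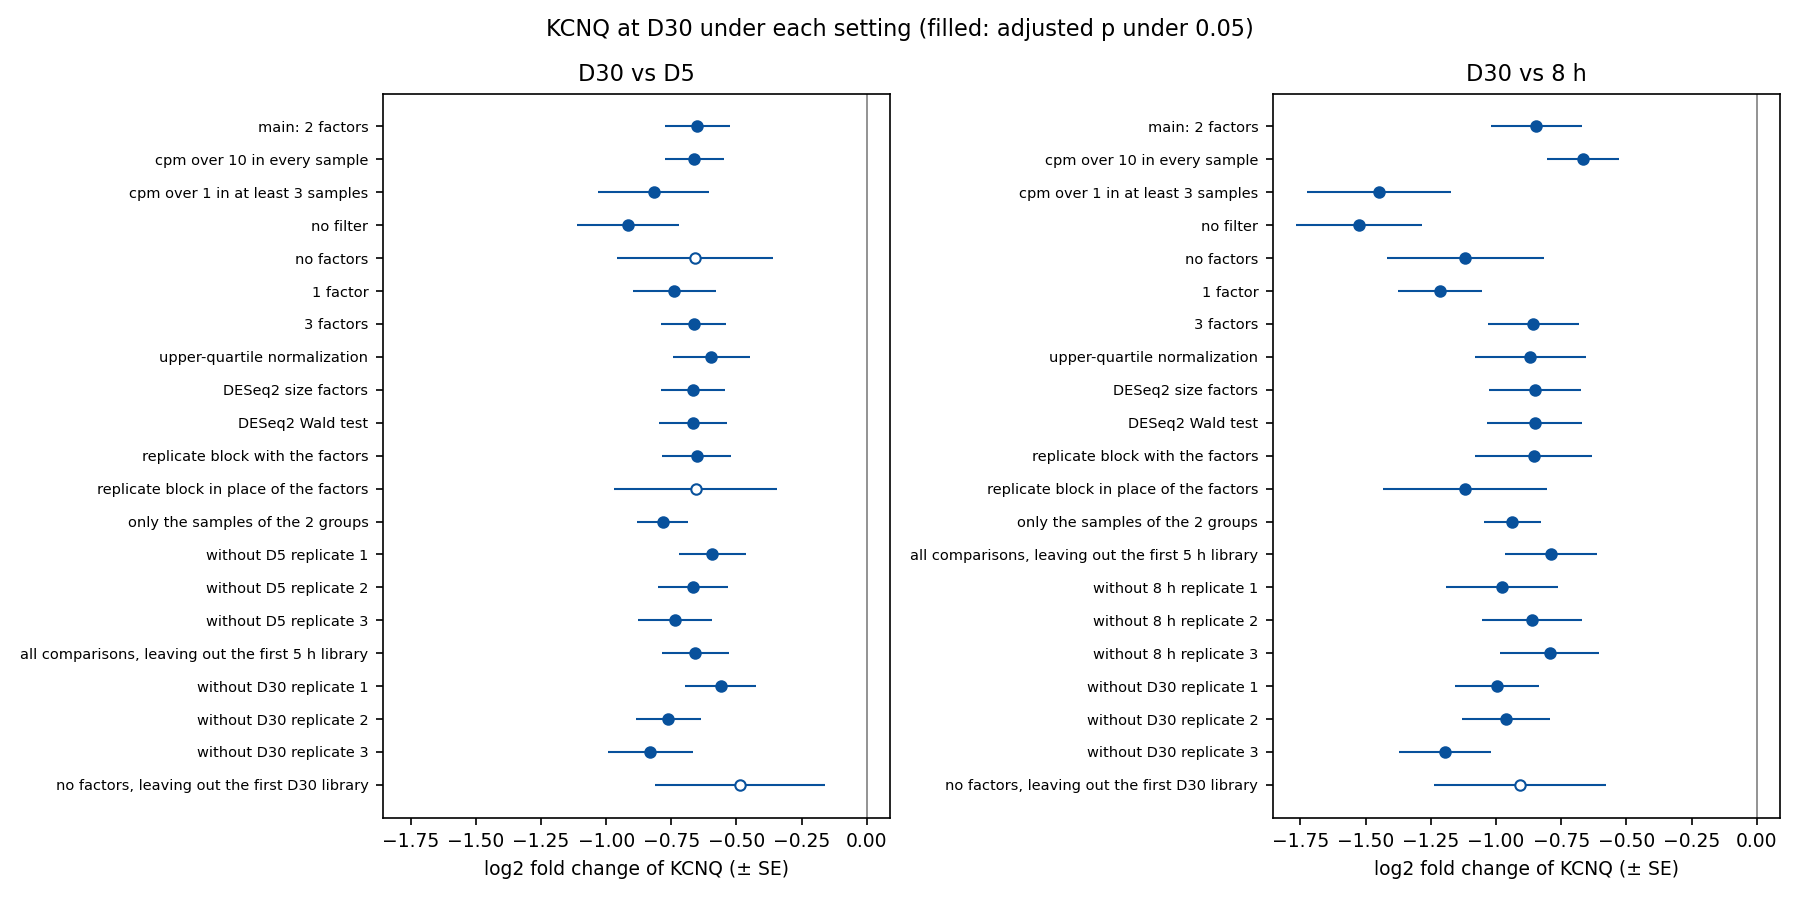
Log2 fold change of KCNQ with its standard error (horizontal axes) under each fit tried (vertical axes), for D30 against D5 and for D30 against 8 h, with filled points for an adjusted p under 0.05. Every value is below 0, and the open points are fits without factors or with a replicate block in their place.

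Among the Shaker family, Sh encodes a fast A-type channel that inactivates within a response. Its samples had 247, 377 and 241 RPKM at D5, 239, 345 and 319.7 at 3 h, 199, 557 and 719 at 5 h, and 412, 401 and 515 at 8 h. The 8 h samples all lay above D5, and the 5 h samples spread on both sides of it. The log2 fold change at 8 h was 0.14 (SE 0.31, adjusted p = 0.796) with factors and 0.62 (SE 0.35, adjusted p = 0.211) without. At 5 h it was 0.68 (SE 0.27, adjusted p = 0.116) and 0.77 (SE 0.35, adjusted p = 0.154). When the first 5 h sample was left out, Sh was called at 5 h in both fits, at 1.04 (adjusted p = 0.0172) with factors and 1.14 (adjusted p = 0.0155) without, beside 8.63 and 7.51% of all genes. The latter fit was chosen after seeing the data. With factors, Sh was called in 2 of the 6 fits that left out 1 sample of these groups. With age Sh had 283, 366 and 280.2 RPKM at D15 and 192, 306 and 277 at D30, overlapping with D5, and its log2 fold changes were 0.03 (SE 0.25) and -0.01 (SE 0.24).

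Shab, the delayed rectifier of photoreceptors, varied least of the 10, from 94.2 to 158 RPKM. It had 99.2, 105 and 111 RPKM at D5, 124, 139 and 158 at 3 h, 120.2, 125 and 134 at 5 h, and 138, 135 and 152 at 8 h. All 9 blue light samples lay above all D5 samples, as did those of D15 with 144, 144 and 128. None of these differences was called in the fits with 2 factors or with none. At 8 h Shab was called in the 6 samples of D5 and 8 h alone, at 0.41 (SE 0.11, adjusted p = 0.0282), and with 1 factor, at 0.44 (SE 0.16, adjusted p = 0.0402). Without factors the log2 fold change was 0.42 (SE 0.16, adjusted p = 0.0805) at 3 h, 0.27 (SE 0.16, adjusted p = 0.282) at 5 h, 0.44 (SE 0.16, adjusted p = 0.0672) at 8 h and 0.40 (SE 0.16, adjusted p = 0.227) at D15. With factors, D15 was at 0.30 (SE 0.12, adjusted p = 0.166) and D30 at 0.32 (SE 0.12, adjusted p = 0.0684). The D30 samples, 94.2, 129 and 148 RPKM, overlapped with D5 through the first, which was the lowest Shab value of all 18.

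Shal encodes the A-type channel of neuronal cell bodies and dendrites, and was the only member called at 3 h against D5, and from 3 h to 8 h, in the fit with 2 factors. It had 29.7, 28.8 and 26.4 RPKM at D5, 26.9, 32.0 and 33.0 at 3 h and 27.8, 32.3 and 32.0 at 8 h. The 3 groups overlapped with each other. With factors Shal rose at 3 h by 0.47 on the log2 scale (SE 0.12, adjusted p = 0.0311) and fell from 3 h to 8 h by 0.62 (SE 0.14, adjusted p = 0.00983). Without factors the same values were 0.12 (SE 0.18, adjusted p = 0.679) and 0.00 (SE 0.18, adjusted p = 0.993). Neither call held in the fit with factors that left out the first 5 h sample, a sample of neither group, where they were 0.10 (adjusted p = 0.740) and -0.16 (adjusted p = 0.531). The call at 3 h was kept without D5 replicate 1 or 2 and lost without D5 replicate 3 or any 3 h sample, within 0.38 to 0.56. The decrease to 8 h was lost without 3 h replicate 1 or 3 or 8 h replicate 1, within -0.66 to -0.45.

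Shaw, whose channel inactivates little and passes current near rest, had its highest values at D5, with 9.95, 10.8 and 11.0 RPKM. At D30 it had 9.76, 6.22 and 7.33, and at D15 8.79, 7.51 and 7.17. The samples of both ages lay below those of D5, as did all 9 of the blue light groups, between 5.49 and 9.80. At D30 Shaw fell by 0.56 on the log2 scale (SE 0.17, adjusted p = 0.0358) with factors, against -0.45 (SE 0.20, adjusted p = 0.213) without. The call was lost when D5 replicate 2 or 3 or D30 replicate 2 or 3 was left out, within -0.70 to -0.44. It was also lost with every other filter, with 1 factor and with a replicate block beside the factors. With cpm over 10 in every sample, the 2 members called at D30 were sei and KCNQ, both as lower, beside 26.5% of all genes. At D15 the value of Shaw was -0.29 (SE 0.17, adjusted p = 0.352) with factors and -0.44 (SE 0.20, adjusted p = 0.284) without. At 3, 5 and 8 h it was -0.26, -0.18 and -0.24 with factors and -0.42, -0.40 and -0.54 without, none of them called.

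Genes of other neurons moved the same way as Shaw and KCNQ at D30. Of the 15 markers of neurons other than photoreceptors, 11 fell and none rose at D30 in the fit with factors. Across all tested genes 17.5% were called there, 8.72% as lower. The median log2 fold change of these markers was -0.82. Their sum was 1208 to 1541 cpm at D5, 831 to 1041 at D15 and 773 to 1081 at D30. Those sums did not overlap between D5 and the older flies. Of the 14 R1-R6 markers, 4 rose and 1 fell at D30, beside the same 17.5% of all genes. They summed to 48607 to 91810 cpm there, against 62490.5 to 76242 at D5. In the other lists, 4 of 10 glial markers and 3 of 7 of hemocytes and basement membrane fell, and none rose. Of the 5 tested R7 and R8 markers 1 rose and 1 fell, and no muscle marker was called. The part of the other neurons and of these other cells in the levels of Shaw and KCNQ was not tested.

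In the EAG family, eag, the founding member of the family, had 169.6, 169 and 122 RPKM at D5, 138, 182 and 152 at 3 h, 85.1, 276 and 329.8 at 5 h, and 257, 283 and 304 at 8 h. The 8 h samples lay above D5 by a ratio of means of 1.83. The first 5 h sample held the lowest eag value of the 18, and the third 5 h sample the highest. At 8 h the log2 fold change was 0.38 (SE 0.26, adjusted p = 0.377) with factors and 0.87 (SE 0.35, adjusted p = 0.0852) without. It was called with the 6 samples of D5 and 8 h alone, at 0.76 (SE 0.17, adjusted p = 0.0118). Without the first 5 h sample, eag was called at 5 h, at 0.84 (adjusted p = 0.0227) with factors and 0.98 (adjusted p = 0.0174) without. The latter fit was chosen after seeing the data. With factors, this was the 1 call of eag at 5 h in the 6 fits that left out 1 sample of these groups. At 3 h the fit with factors gave 0.82 (SE 0.27, adjusted p = 0.0745) although the samples overlapped and the fit without factors gave 0.04 (SE 0.35, adjusted p = 0.950). In older flies it had 175, 225 and 191 RPKM at D15 and 120.2, 213 and 183 at D30, with no call.

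The erg-type channel gene sei, in which mutations cause seizures at high temperature, had the tightest group of any member at 8 h, 26.2, 26.0 and 26.5 RPKM. Its D5 samples had 23.6, 17.7 and 19.5, its 3 h samples 13.1, 16.1 and 18.4, and its D30 samples 12.7, 16.1 and 20.0. All 8 h samples lay above those of D5, 3 h and D30. From 3 h to 8 h, within the lane, the log2 fold change was 0.46 (SE 0.18, adjusted p = 0.0934) with factors and 0.73 (SE 0.17, adjusted p = 0.00406) without. Against D5 the 8 h value was 0.05 (SE 0.15, adjusted p = 0.856) with factors and 0.37 (SE 0.17, adjusted p = 0.122) without. At 5 h and D15 the samples, 18.9 to 20.5 and 18.4 to 22.0 RPKM, lay within the range of D5. The 2 genes that share exon bases with sei also lay above D5 at 8 h. There gammaSnap1 had 26.5 to 30.4 cpm against 17.6 to 22.8 at D5, and ppk29 10.2 to 18.5 against 3.49 to 5.75. In the same samples sei had 85.2 to 86.7 cpm against 58.0 to 77.2. The part of these genes in the counts of sei was not tested.

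Elk, the least expressed member, had 6.91, 8.86 and 8.10 RPKM at D5 and 6.31, 4.0 and 4.40 at 8 h, which did not overlap. Its log2 fold change at 8 h was -0.19 (SE 0.21, adjusted p = 0.597) with factors and -0.70 (SE 0.27, adjusted p = 0.0743) without. The other groups overlapped with D5, from 4.60 at 5 h to 11.1 in the first D30 sample, the highest Elk value of the 18. No comparison with D5 called Elk in either fit.

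Of the calcium-activated channels, slo encodes the large-conductance channel. It had 386, 272 and 272 RPKM at D5, 286, 303 and 335 at 3 h, 195, 345 and 381 at 5 h, and 329, 332 and 352 at 8 h, so all blue light groups overlapped with D5. The D15 samples, 435, 409 and 411, lay above D5, and the D30 samples were 231, 398 and 459. Against D5, slo was at 0.35 (SE 0.17, adjusted p = 0.243) at D15 and 0.38 (SE 0.16, adjusted p = 0.126) at D30 with factors, and at 0.43 (SE 0.26, adjusted p = 0.39) and 0.22 (SE 0.25, adjusted p = 0.664) without. Without the first D30 sample, which was the lowest of its group in 8 members, slo and Shab were called at D30 with factors, beside KCNQ and Shaw, where 15.8% of all genes were called. From 8 h to D30 the value with factors was 0.70 (SE 0.23, adjusted p = 0.0762), against 0.10 (SE 0.25, adjusted p = 0.794) without.

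SK, the small-conductance channel, showed the largest ratio of means of any member between 8 h and 3 h. It had 106, 156 and 126 RPKM at 3 h and 335, 340.0 and 328 at 8 h, around D5 samples of 199, 212 and 157. All 3 h samples lay below D5 and all 8 h samples above, and the mean at 8 h was 2.59 times that at 3 h. These groups share a lane. Without factors SK rose from 3 h to 8 h by 1.37 on the log2 scale (SE 0.34, adjusted p = 0.00633). With factors the value was 0.15 (SE 0.30, adjusted p = 0.767) and was not called, and both factors separated these 2 groups in that fit. It was called in the 6 samples alone, at 1.33 (SE 0.14, adjusted p = 0.000326), in the 9 blue light samples alone, at 0.56 (SE 0.17, adjusted p = 0.0319), and with factors once the first 5 h sample was left out, at 1.20 (SE 0.29, adjusted p = 0.0113). These fits each held 2 factors estimated anew from their samples, and called 47.0, 34.1 and 18.1% of all genes. The last of these fits was tried after seeing the data.

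Against D5, SK was at -0.55 (SE 0.34, adjusted p = 0.262) at 3 h and 0.82 (SE 0.34, adjusted p = 0.0954) at 8 h without factors, and at 0.05 (SE 0.26, adjusted p = 0.940) and 0.20 (SE 0.25, adjusted p = 0.649) with them. The 5 h samples had 84.2, 234 and 266 RPKM, on both sides of D5. In older flies SK had 211, 268 and 270.1 RPKM at D15 and 123, 239 and 259.6 at D30, with no call in either fit.

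From 3 h to 8 h the 10 members together gave 1 call with factors, the decrease of Shal, where 15.5% of all genes were called, 9.10% as lower. Without factors there were 2, the increases of SK and sei, where 36.7% of all genes were called. All 8 h samples lay above all 3 h samples for 4 members, Sh, eag, sei and SK, and for none below, beside 56.5% of all genes that did not overlap, 27.2% above. Of these 4 genes, Sh and eag had fitted values of -0.58 and -0.44 with factors, and 0.56 and 0.84 without.

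The share of each gene in the summed RPKM of the 10 does not depend on how libraries are scaled, but it does depend on the exon lengths. Shares of the same sum are tied to each other, so a larger share of KCNQ by itself lowers those of the other genes. KCNQ made up 23.1 to 24.1% at D5, 31.9 to 34.0% at 3 h and 21.4 to 24.0% at 8 h, then 16.6 to 19.4% at D15 and 14.6 to 16.2% at D30. The shares at 3 h lay above, and those at D15 and D30 below, all D5 samples. SK made up 12.3 to 13.6% at D5, 7.34 to 8.96% at 3 h and 14.8 to 17.1% at 8 h. The share of eag was 9.56 to 11.1% at D5 and 13.1 to 13.8% at 8 h, again without overlap. For slo it was 17.4 to 25.3% at D5, 15.9 to 16.8% at 8 h and 24.0 to 28.2% at D30, so that at D30 every sample held a larger share of slo than of KCNQ, whereas the 2 shares overlapped at D5. At 5 h the shares were not of one kind, since KCNQ made up 61.4% in the first sample and 28.2 and 16.7% in the others. An exact permutation test of 3 samples against 3 cannot go below p = 0.10, so none was run on shares.

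**Figure D4:**
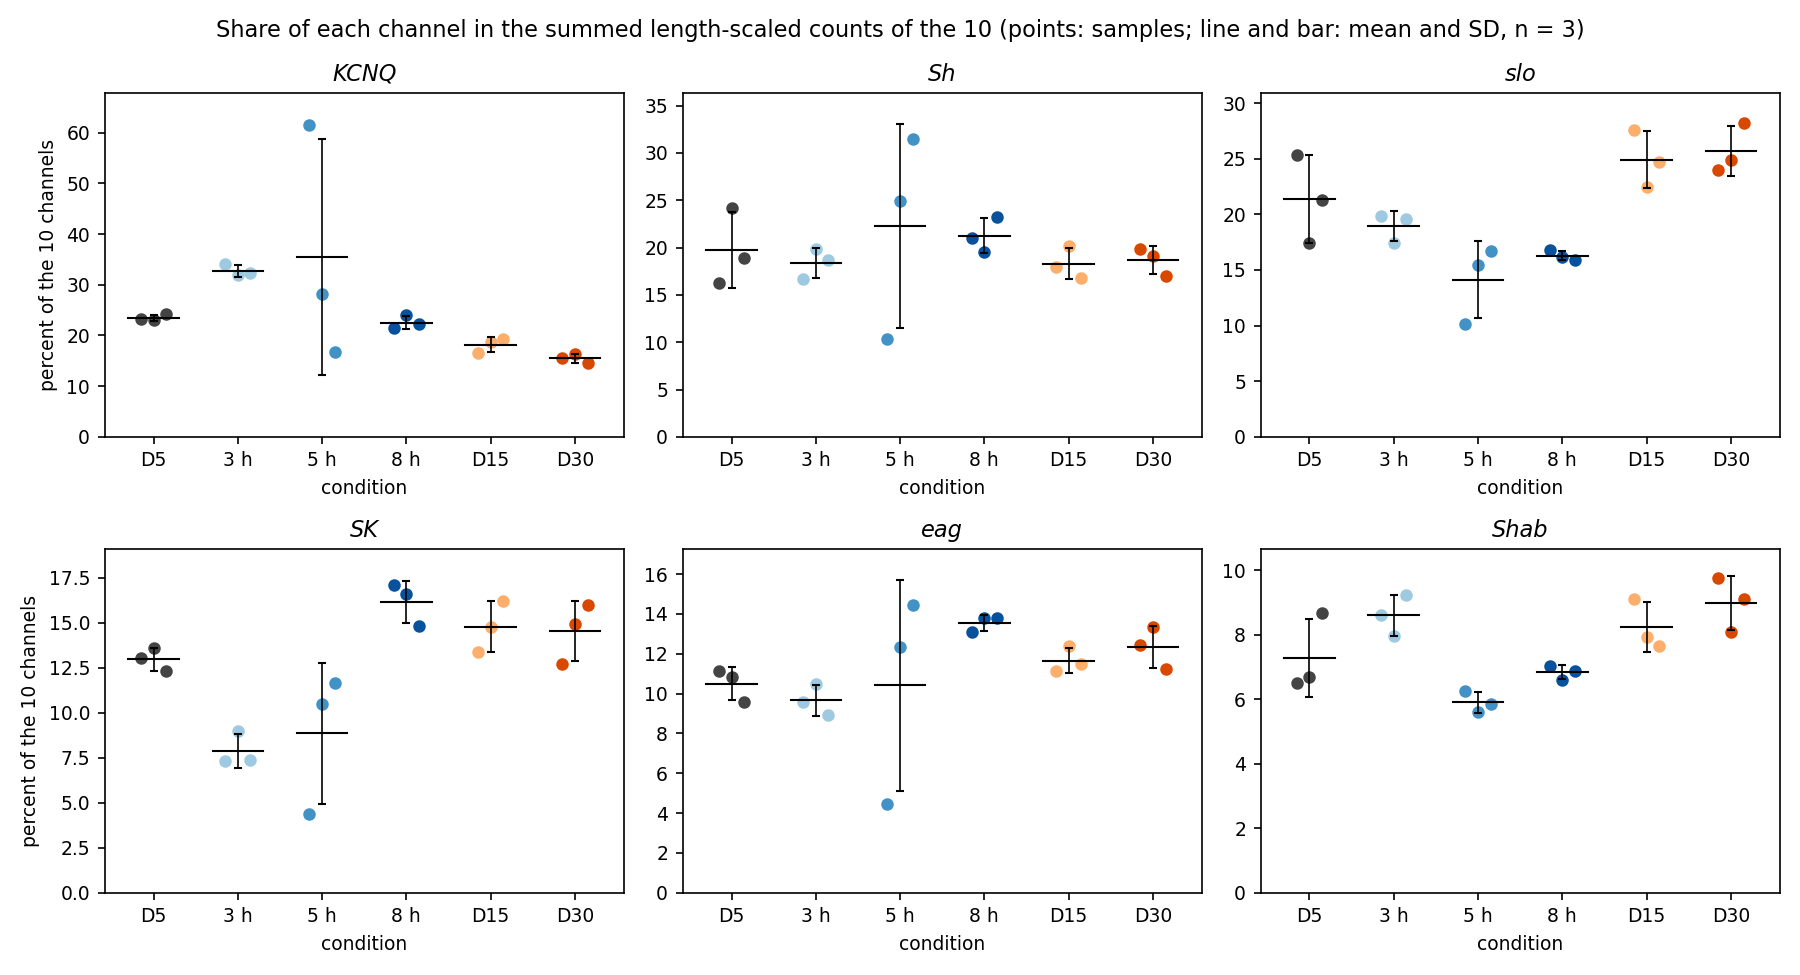
Share of 6 channel genes in the summed RPKM of the 10 (vertical axes, percent, from 0) by condition (horizontal axes), with points for samples and line and bar for the mean and SD of 3 samples. KCNQ takes 31.9 to 34.0% at 3 h and 14.6 to 16.2% at D30, with D5 between them at 23.1 to 24.1%, while SK is lowest at 3 h apart from the first 5 h sample.

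The summed RPKM of the 10 was 1276 to 1562 at D5, 1439 to 1741 at 3 h, 1918 to 2283 at 5 h and 1964 to 2211 at 8 h. The sums at 5 h and 8 h lay above D5 in all samples. They were 1579 to 1818 at D15, also above D5, and 965 to 1626 at D30, on both sides of it. The lowest sum was that of the first D30 sample, in which KCNQ and Sh also had their lowest values of the 18.

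Genes of the same channel superfamily and partners of the channels were read next to the members, 3 and 9 genes that were all tested. The relatives were Ih, the channel opened by hyperpolarization, SLO2, a relative of slo, and Shawl, a relative of Shaw. At D30 with factors 2 of 3 fell and none rose, Ih by 0.83 (SE 0.13, adjusted p = 0.000809) and SLO2 by 0.64 (SE 0.15, adjusted p = 0.00969), where 17.5% of all genes were called, 8.72% as lower. Ih had 18.9, 22.9 and 22.3 RPKM at D5 and 16.4, 11.2 and 11.8 at D30, without overlap. It was called in every fit that left out 1 D5 or D30 sample, and without factors (-0.70, adjusted p = 0.0404), while SLO2 was called in 5 of 6 such fits and not without factors (-0.47, adjusted p = 0.182). Without factors Ih also fell at 3 h by 0.59, at 5 h by 0.67 and at 8 h by 0.79.

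Of the 9 partners, 2 were called at 3 h with factors, Hk as higher and SKIP as lower, beside 7.88% of all genes, and 3 were called as lower at 5 h, dysc, SKIP and CASK, beside 9.60%. At 8 h 2 were called as lower, dysc and Cam, beside 9.08% of all genes. At D30 Hk and Slob were called as higher and SKIP and CASK as lower, beside 17.5%. Most of these calls were lost when 1 sample of the groups compared was left out. At 3 h Hk was kept in 2 of 6 such fits and SKIP in 1, and at 5 h SKIP was kept in 2 and CASK in 0. At D30 Hk, Slob and CASK were each kept in 2 of 6 and SKIP in 1. No partner or relative was called at D15. SKIP binds Shal channels, and CASK, a membrane scaffold, binds CaMKII and regulates eag. Slob and Slip1 bind the slo channel, and qvr encodes a small membrane-anchored regulator of Sh.

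The gene dysc, which regulates the level of slo channels in the fly, had 255, 309 and 249 RPKM at D5, 188, 174 and 153 at 5 h and 149, 161 and 160.1 at 8 h. Both light groups lay below D5. It fell by 0.87 (SE 0.15, adjusted p = 0.00459) at 5 h and by 1.02 (SE 0.17, adjusted p = 0.00286) at 8 h with factors, and by 0.66 (SE 0.18, adjusted p = 0.0288) and 0.79 (SE 0.18, adjusted p = 0.0101) without. Each call with factors was kept in all 6 fits that left out 1 sample of the groups compared. The slo samples themselves overlapped with D5 in both groups.

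Cam encodes calmodulin, the calcium sensor of SK channels and of many other proteins. It had 297, 652 and 359 RPKM at D5, 815, 799 and 824 at 3 h, and 182, 238 and 213 at 8 h. The 3 h samples lay above, and the 8 h samples below, all D5 samples, the reverse of SK in these groups. From 3 h to 8 h Cam fell by 1.38 (SE 0.32, adjusted p = 0.0110) with factors and by 1.95 (SE 0.30, adjusted p = 0.000356) without. Against D5 at 8 h it fell by 1.08 (SE 0.28, adjusted p = 0.0271) with factors, a call kept in 3 of 6 fits that left out 1 sample, and by 1.05 (SE 0.29, adjusted p = 0.0238) without. At 3 h it rose without factors, by 0.90 (SE 0.29, adjusted p = 0.0410), against 0.30 with factors. Cam shares 199 exon bases with lncRNA:CR43900 on the same strand, which held 1486 to 8884 counts per sample.

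Hk, the beta subunit of the Sh channel, is an instance where the 2 fits part. From 3 h to 8 h it was called as lower with factors, at -0.74 (SE 0.22, adjusted p = 0.0317), a call kept in 1 of 6 fits that left out 1 sample, whereas its 8 h samples, 169, 174 and 194 RPKM, all lay above its 3 h samples, 108, 145 and 139.7. Without factors the value was 0.45 (SE 0.31, adjusted p = 0.265). At D30 its value was 0.51 (SE 0.15, adjusted p = 0.0288) with factors, and the samples, 95.4, 166 and 188, overlapped with those of D5, 147, 110.4 and 107. The value without factors was 0.30 (SE 0.31, adjusted p = 0.624). Slip1 and qvr rose from 3 h to 8 h without factors, by 1.60 (SE 0.30, adjusted p = 0.00115) and 1.48 (SE 0.37, adjusted p = 0.00618), and with factors were at 0.49 and 0.09 with no call.

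**Figure D5:**
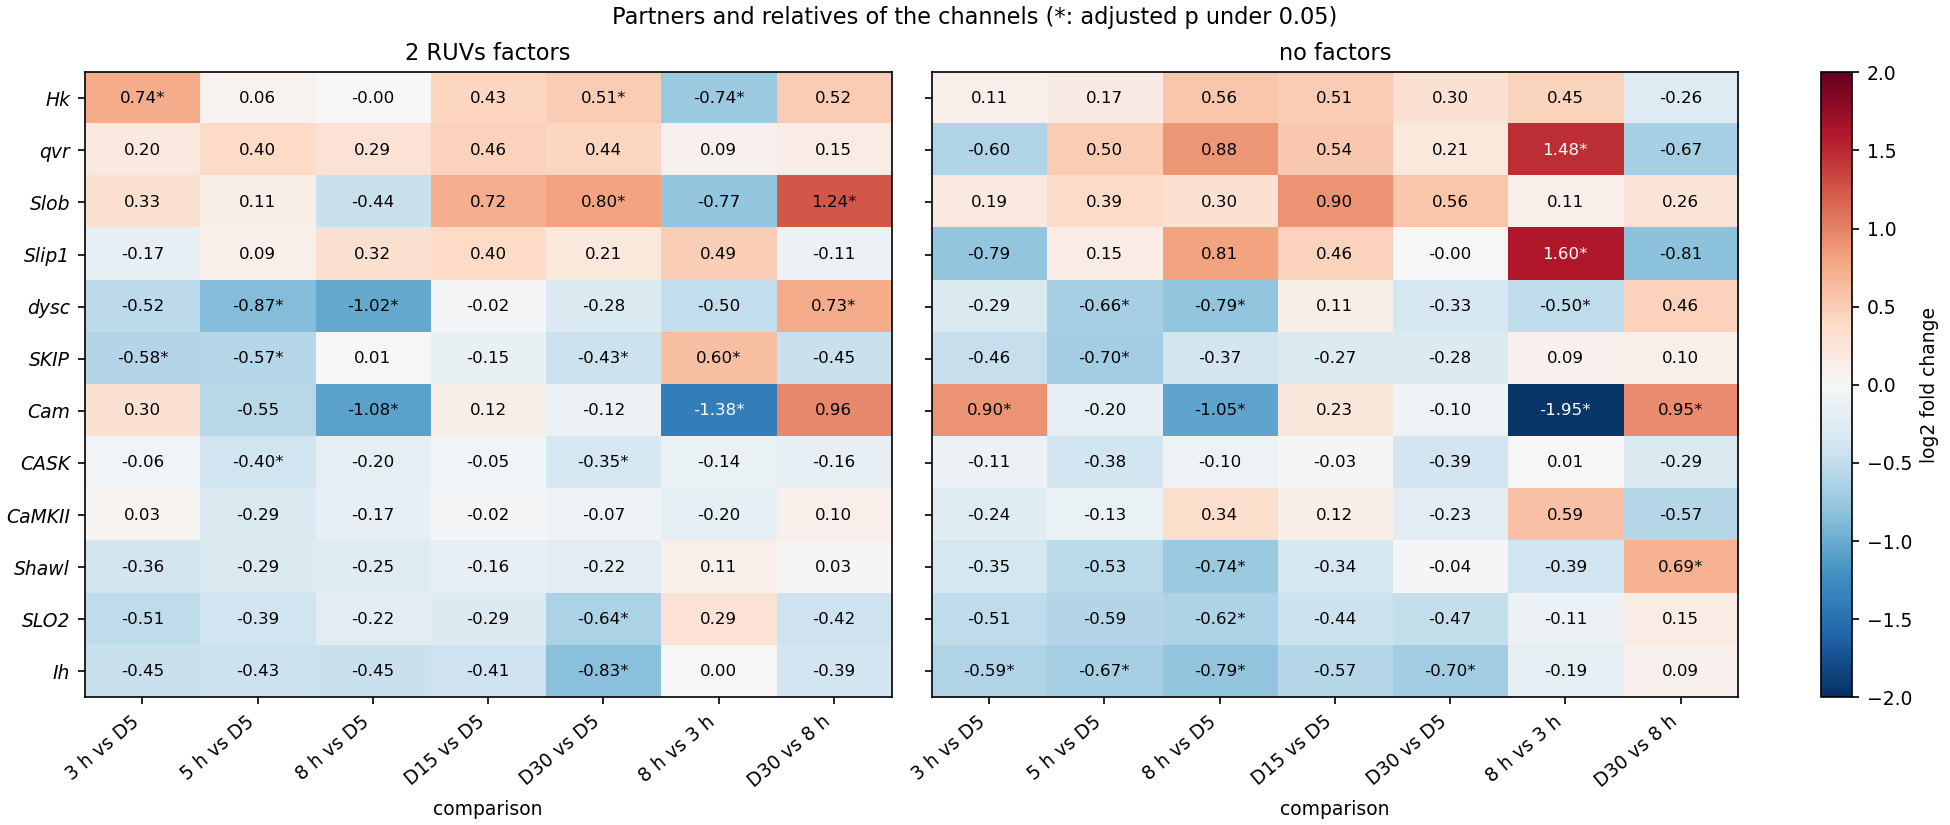
Log2 fold change (colour and printed value) of 9 channel partners and 3 relatives (vertical axis) in 7 comparisons (horizontal axis), in the edgeR fit with 2 RUVs factors (left) and without factors (right), with a star for an adjusted p under 0.05. Ih and dysc have the same sign and a star in both fits at D30 and at 5 and 8 h respectively, and Hk has opposite signs at 8 h against 3 h.

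Marker genes of other cells moved between the blue light groups as well. The 10 glial markers summed to 673 to 767 cpm at D5, 1528 to 2215 at 3 h and 361 to 432 at 8 h. Most of the sum at 3 h was Eaat1, a glutamate transporter gene, which rose by 2.19 on the log2 scale at 3 h (SE 0.28, adjusted p = 0.000522). It was the single glial marker of 10 called there, beside 7.88% of all genes. The rise of the sum was not shared by the list. All 3 h samples lay above all D5 samples for 1 glial marker and below them for 5, where 45.2% of all genes did not overlap. The sums of the other neuron markers were 1031 to 1156 cpm at 3 h and 713 to 1107 at 8 h, against 1208 to 1541 at D5. The 6 markers of R7 and R8 summed to 803 to 1064 cpm at D5, 491 to 703 at 3 h and 537 to 734 at 8 h. Those of hemocytes and basement membrane summed to 557 to 650 cpm at D5, 277 to 398 at 3 h and 299 to 343 at 8 h, so that in these 3 lists both light groups lay below all D5 samples. The muscle markers, 861 to 1618 cpm at D5 and 546 to 711 at 8 h, lay below D5 at 8 h and overlapped with it at 3 h, at 496 to 1638. The R1-R6 sums, 56472 to 72713 cpm at 3 h and 69391 to 73685 at 8 h, overlapped with each other and with D5. The part of these other cells in the levels of SK, KCNQ and sei in blue light was not tested.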

How the data were processed

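The deposited table holds raw counts per gene for 17811 features and 18 samples, with no normalization. By the methods of the study, the authors used Trimmomatic 0.39 for trimming, HISAT2 2.1.0 for alignment (build BDGP6.28), Samtools 1.8 for sorting and HTSeq 0.13.5 for counting. The submitters' processing notes name HTSeq 0.11.1. The strand setting is not given in the sources used here.

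Samples were assigned by column name. The Ensembl BDGP6.54 annotation gave names and positions for 17710 of 17811 features. The study states a filter of cpm over 10 in all samples, which left 4211 genes, fewer than the study reports, and was an alternative. Here, where all 18 samples exceeded 10 counts, a feature was fitted in edgeR 4.0.16 (R 4.3.3, limma 3.58.1) with TMM, a mean per condition and 2 RUVs factors, over all 18 samples. RUVs was rewritten from its published description, with replicates and all genes as controls. It was tested on counts simulated with the factors of this fit, for changes at D30 against D5 alone. Of 100 genes changed by 0.5 on the log2 scale 6 were called, and of 100 changed by 1, 59, with 2 false calls. Without factors the numbers were 0 and 14, with 0 false calls. The simulated counts held these factors by design and no other difference between groups, so they cannot rank the 2 fits. Real differences between groups that run along the factors were not simulated. Nor were the blue light comparisons. Quasi-likelihood F-tests were adjusted by Benjamini-Hochberg over the 9427 genes, with calls made at adjusted p under 0.05. RPKM used TMM library sizes and merged exon lengths, so it keeps no correction by the factors.

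Every member, 3 relatives and 9 partners were named whatever their values. These genes, the marker lists and the tests were chosen with earlier results of these data known. Alternatives were other filters, 0, 1 or 3 factors, upper-quartile or DESeq2 1.42.0 size factors, a DESeq2 Wald test, a replicate block, smaller sample sets and fits without each sample. Smaller sample sets and fits without a sample had 2 factors estimated anew, unless named as without factors. Samples of a group are separate pools of flies, and those with the same number are not paired by the labels.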

Additional observations from a re-analysis of the deposited data

Results flagged for a closer look

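From 3 h to 8 h of blue light, the log2 fold change of Shal was -0.62 (SE 0.14, adjusted p = 0.00983, edgeR with 2 factors). It came from a direct test of the 2 light groups, which both factors separated. Its samples overlapped, at 26.9 to 33.0 RPKM at 3 h and 27.8 to 32.3 at 8 h, and the value without factors was 0.00.

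At D30 against 8 h the log2 fold change of KCNQ was -0.84 (SE 0.18, adjusted p = 0.0109), in a direct test of the 2 groups. They differed in age, light and flow cell at once, and 1 of the 2 factors separated them. All 3 D30 samples lay below all 3 of 8 h.

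Outside the gene counts, read pairs with several alignments made up at least 25.2% of all pairs in each D30 sample, against at most 10.5% at D5. D30 was sequenced on another flow cell, and the part of that difference in the D30 values was not tested.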

How the results depend on the processing

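The call of KCNQ at D30 against D5 held with every filter, with 1 or 3 factors, with both other normalizations, in DESeq2 and in the 6 samples alone, and was lost without factors. Of the 5 calls among the members, this one and that of KCNQ at D30 against 8 h held in all fits with 2 factors that left out 1 sample of the groups compared, and that against 8 h was lost without factors and the first D30 sample. For the other 65 results, 1261 values were computed under alternatives, of which 168 had another sign and 90 were called, 83 of them in the main direction.

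Counts of members called under other settings are given here where they differ from those above by more than 1.5 times. Shares of all genes called under the same setting stand beside them. At 3 h (1 of 10 in the report) the count was 4 with cpm over 10 in every sample, beside 19.0%. DESeq2 gave 2, beside 11.0%. The count was 0 with cpm over 1 in 3 samples, with no filter and with 0, 1 or 3 factors. It was also 0 with upper-quartile normalization and in the 6 samples alone. The settings with a count of 0 called 4.53 to 19.2% of all genes. At 5 h (0) it was 2 with cpm over 10 and with 1 factor, beside 25.1 and 11.2%. The 6 samples alone gave 3, beside 18.6%. It was 1 with cpm over 1, no filter, no factors, 3 factors or DESeq2, beside 6.87 to 13.9%. At 8 h (0) it was 1 with cpm over 1 or no filter, beside 14.2 and 13.2%. It was 6 with 1 factor, beside 34.9%, and 7 in the 6 samples alone, beside 34.0%. At D15 (0) it was 1 by DESeq2, beside 7.20%, and 2 in the 6 samples alone, beside 21.6%. At D30 (2) it was 1 with cpm over 1, no filter or 1 factor, beside 4.40, 3.53 and 12.7%. It was 0 without factors, beside 4.40%. From 3 h to 8 h (1) it was 3 with cpm over 10, beside 31.5%. It was 2 with cpm over 1, no factors, 1 factor or DESeq2, beside 15.5 to 36.7%. The 6 samples alone gave 5, beside 47.0%, and the 9 blue light samples of 1 lane 4, beside 34.1%. From 8 h to D30 (1) it was 2 with cpm over 10, no factors or DESeq2, beside 25.5, 25.8 and 10.5%. It was 3 with 1 factor, beside 38.8%, and 4 in the 6 samples alone, beside 12.8%. The causes of these changes were not tested.

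The decrease of Hk from 3 h to 8 h turned direction under some settings, and that of Shal shrank to almost no change. Shal was at 0.0027 without factors, 0.0052 with the replicate block in place of the factors and 0.0091 in the 6 samples alone, and Hk was at 0.45, 0.46 and 0.45. Upper-quartile normalization moved the median of all genes at D15 from -0.01 to 0.11 on the log2 scale, and that of the members from 0.08 to 0.19.

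Leaving out 1 sample of the groups compared gave 0 to 3 members called at 3 h, 0 to 2 at 5 h, 0 to 0 at 8 h and at D15, 1 to 4 at D30, 0 to 2 from 3 h to 8 h and 1 to 2 from 8 h to D30. Some alternatives were chosen after seeing the data. Leaving out the first 5 h sample from all comparisons gave 0 at 3 h, beside 9.29% of all genes. Leaving it out with no factors gave 2 at 5 h, beside 7.51%. Leaving out the first D30 sample with no factors gave 0 at D30 against D5, beside 4.73%.

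In no comparison did the correlation of every same-numbered pair pass 0.1, the level set for pairing, although all 3 were above 0 for D15 against D5, and for 8 h against 3 h before and D30 against D5 after removal of the factors. With the factors removed, the lowest correlation of a pair was -0.23 and the highest 0.57, and before that -0.14 and 0.41. With a replicate block beside the factors the count was 2 at 3 h, 2 at 5 h, 1 at D30 and 0 from 3 h to 8 h. These fits called 9.18, 10.8, 19.5 and 8.68% of all genes. With the block in place of the factors the count was 0 at 3 h (19.8% of all genes), 1 at 5 h (10.7%) and 2 at 8 h (20.0%). It was 0 at D30 (4.86%), 4 from 3 h to 8 h (37.2%) and 3 from 8 h to D30 (26.4%). Other counts of members were the same with the block. With 3 samples a group, a change that was not called is not shown to be absent, as for SK at 8 h without factors, at 0.82 with a SE of 0.34.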
